A study of Mus musculus with 8 samples.

Results

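The IGF-binding proteins Igfbp2, Igfbp3, Igfbp4, Igfbp5, Igfbp6 and Igfbp7, the receptors Igf1r, Igf2r and Insr, and the receptor substrate Irs1 were read from a table of RNA-seq counts in mouse pancreatic cancer cells. These 10 genes were taken by symbol from the 24421 rows of the table. Of the 10, 8 had at least 1 count and 7 passed a filter on low counts and were tested, among 11797 tested rows. The cells are KPCY, a mouse pancreatic cancer line given as male in the labels. The knockdown group is a stable line transduced with a lentiviral vector that inhibits miR-27a-3p (4 libraries), and the scrambled group is a stable line transduced with a lentiviral scrambled sequence (4 libraries). Both lines were selected with puromycin at 2 µg/mL for 7 days, and both were grown with 4.5 g/L glucose and 10% fetal bovine serum. RNA was taken 24 hours after seeding. The libraries of a group are labelled as biological replicates of 1 stable line, with no separate transductions given, so a p-value here reflects variation among cultures of that line and not among independently made lines. The question is which transcripts of the IGF axis differ when miR-27a-3p is inhibited.

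The insulin-like growth factors IGF1 and IGF2 act through IGF1R, a receptor tyrosine kinase, and with lower affinity through the insulin receptor, which can form hybrids with IGF1R. IRS1 docks on both receptors and passes the signal to PI3K and AKT. IGF2R, which is also a mannose-6-phosphate receptor, carries IGF2 to lysosomes and is held to be a clearance receptor without kinase activity. The secreted IGF-binding proteins hold the ligands away from the receptors, carry them in blood, and release them when proteases such as PAPP-A or HTRA1 cut them. IGFBP7 binds IGFs weakly and insulin better, and IGFBP3 from tumours has been studied as a factor in muscle wasting.

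Total counts ran from 19165513 to 21735023 in the knockdown libraries and from 20021056 to 23542275 in the scrambled libraries. A gene with no count in a library could still have had up to 3 counts there, or 0.127 to 0.157 CPM (counts scaled to a common library total), a limit for counting error only. Scrambled replicate 2 stood apart. Pairs that include it had chi-squares of 5.03 to 5.20 per gene, and all other pairs within a group 1.72 to 2.31. Mature miR-27a-3p is not measured by this assay, so the inhibition itself has no check in these counts. Results that rest on scrambled replicate 2 are given with and without it. The pancreatic cancer label was checked against markers. The 8 ductal epithelial genes summed to 11380 to 11700 CPM in the knockdown and 10710 to 11680 CPM in the scrambled libraries. Most of these counts came from Krt7, Krt8, Krt18 and Krt19, while Epcam had 1047 and Cldn4 381 counts in all. Of the 8, 4 were higher and 2 lower in the knockdown (75.0% at an adjusted p under 0.05, against 47.9% of all tested genes). Cldn4 had a log2 fold change of 4.28, knockdown over scrambled. Of 8 fibroblast markers, 6 (Pdgfrb, Col1a2, Dcn, Lum, Thy1 and Fap) had no count, and the sum was 0.725 to 1.38 CPM in the knockdown against 0.943 to 1.41 CPM in the scrambled libraries. The 6 endothelial markers summed to 0.182 to 0.717 against 0.534 to 1.16 CPM, with Emcn at 0. The 5 adipocyte markers summed to 6.58 to 8.45 against 9.47 to 11.9 CPM, with Plin1, Fabp4 and Lep at 0 and nearly all counts from Cidec.

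The sequence that the vector targets, and its matches in the 10 genes, are shown first because the vector inhibits this microRNA. The mature miR-27a-3p (RefSeq, GRCm38.p6, chr8:84208727-84208747, plus strand) and its relative miR-27b-3p (chr13:63300760-63300780, plus strand) share a seed, the bases 2 to 8 given in capitals.
miR-27a-3p: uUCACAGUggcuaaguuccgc
miR-27b-3p: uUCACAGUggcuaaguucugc
The longest annotated 3′ UTR of each gene was searched on the transcript strand for the 8mer ACTGTGAA, the 7mers ACTGTGA and CTGTGAA and the 6-base core CTGTGA, which is part of all of them. Among 11364 tested genes with a 3′ UTR, 6.41% held the 8mer, 29.5% a 7mer or 8mer and 49.1% the core. Of the 10 genes, Insr alone held an 8mer, with an additional 7mer of each kind, and Irs1 held a 7mer of each kind. The windows below are GRCm38, minus strand, with the match in capitals.
Insr 8mer, chr8:3155444-3155473: gtggagggctaACTGTGAAcctagaggggt
Insr 7mer, chr8:3153019-3153048: ttagagccttcCTGTGAAcccaaagtcttc
Insr 7mer, chr8:3151799-3151828: tgggcagtatcACTGTGAgagtctggttca
Irs1 7mer, chr1:82237377-82237406: aacaagaaagcACTGTGAcaccggaacaat
Irs1 7mer, chr1:82235999-82236028: cctttgagtccCTGTGAActcagccctgca
Long UTRs hold such matches often. The Insr UTR has 4747 bases, and of 779 tested genes with a UTR 0.8 to 1.25 times as long, 16.7% held an 8mer and 69.2% a 7mer or 8mer. For Irs1 (4525 bases, 880 genes) the share with a 7mer or 8mer was 65.7%. Igf1r (7267 bases) held the core 2 times and Igfbp5 (4445 bases) 3 times without a longer match. The UTRs of Igfbp3 (1435 bases), Igfbp4 (2813 bases), Igfbp7 (240 bases), Igf2r (1304 bases), Igfbp2 and Igfbp6 held no core, so a match in this window was present in neither the binding proteins that rose nor the one that fell. Among tested genes with a UTR of like length, the core was held by 13.3% for Igfbp7, 56.1% for Igfbp3 and 77.4% for Igfbp4. The lack of a match thus says least for Igfbp7. Matches are letters in a reference, and no match says nothing of sites elsewhere in a transcript.

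Across the 10 genes, Igfbp3 and Igfbp7 rose and Igfbp4 fell, each by 1.65-fold or more, while the receptors and Irs1 differed by 1.07- to 1.22-fold. Of the 7 tested genes, 5 were called higher (Igfbp3, Igfbp7, Igf2r, Igf1r and Irs1), 1 lower (Igfbp4) and 1 (Insr) was not called, at a Benjamini-Hochberg adjusted p under 0.05 over all tested genes. The background is wide in this comparison, since 47.9% of all tested genes were called, 23.8% higher and 24.1% lower. The median log2 fold change, knockdown over scrambled, was 0.12 for the 7 genes and 0.00 for all tested genes, and the median absolute change was 0.28 against 0.13. The absolute changes of Igfbp3, Igfbp4 and Igfbp7 exceeded those of 96.8%, 95.3% and 94.7% of tested genes. Those of Igf2r, Irs1 and Igf1r exceeded those of 77.5%, 45.1% and 46.3%, and that of Insr 37.2%. Igfbp3, Igfbp4 and Igfbp7, 3 of the 7, were called with an absolute log2 fold change of at least 0.5, where 8.45% of tested genes were. Of them 2, Igfbp3 and Igfbp4, reached 0.75, where 4.82% did. As the 10 genes were chosen with earlier results of these data known, their shares and medians beside those of all genes are descriptions with no test. In 5 of the 7 genes no knockdown library overlapped a scrambled one (Igfbp3, Igfbp4, Igfbp7, Igf1r and Igf2r), where 42.2% of tested genes showed no overlap. In bulk RNA, fewer cells expressing a gene and less of it per cell cannot be told apart.

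**Figure D1:**
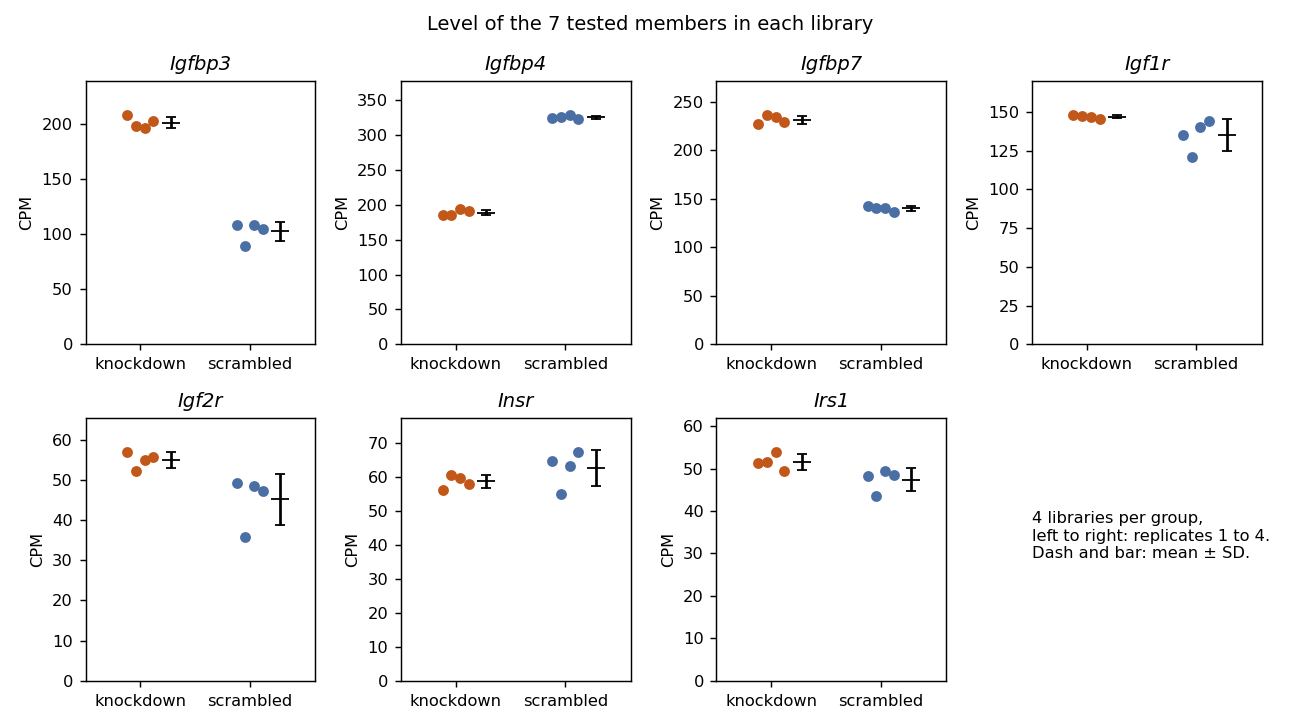
Level of each tested gene in CPM (linear axis from 0) in the 4 knockdown and the 4 scrambled libraries, with replicates 1 to 4 from left to right and the mean ± SD beside them. Igfbp3 and Igfbp7 are higher and Igfbp4 is lower in every knockdown library, and scrambled replicate 2 is the lowest scrambled point for Igfbp3, Igf1r, Igf2r, Insr and Irs1.

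Igfbp3, the main IGF carrier of blood and a secreted product of many carcinomas (ENSMUSG00000020427, GRCm38 chromosome 11, 7206086 to 7213923, minus strand), rose 1.96-fold. It had 208, 198, 197 and 203 CPM in knockdown replicates 1 to 4, against 108, 89.5, 108 and 104 CPM in scrambled replicates 1 to 4. The groups were far apart, and the lowest scrambled library was replicate 2. The means were 201 ± 5.16 in the knockdown and 102.5 ± 8.88 CPM in the scrambled cells (SD, n = 4), a log2 fold change of 0.97 (SE 0.0420, 95% interval 0.89 to 1.06, adjusted p = 1.11e-14). Without scrambled replicate 2 the scrambled mean was 107 ± 2.24 CPM and the log2 fold change 0.91. Behind these values lay 3821 to 4453 counts per knockdown library and 1777 to 2521 per scrambled library.

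Igfbp7, a secreted protein of vessel walls and stroma that also occurs in epithelia (ENSMUSG00000036256, chromosome 5, 77349240 to 77408041, minus strand), rose 1.65-fold. Its levels were 227, 236, 234 and 229 CPM in the knockdown and 143, 141, 140.5 and 136 CPM in the scrambled replicates 1 to 4. Within each group the libraries lay close together, with coefficients of variation of 1.81% (knockdown) and 1.95% (scrambled), and scrambled replicate 2 was in the middle of its group. The means were 232 ± 4.201 in the knockdown and 140.0 ± 2.72 CPM in the scrambled cells (SD, n = 4), with a log2 fold change of 0.73 (SE 0.0264, 95% interval 0.67 to 0.78, adjusted p = 3.94e-16). The gene shares 85 exon bases with Polr2b on the opposite strand, and Polr2b stood at 171 ± 3.24 in the knockdown and 164 ± 0.958 CPM in the scrambled cells (adjusted p = 0.0878).

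Igfbp4, which blocks IGF action until PAPP-A cleaves it (ENSMUSG00000017493, chromosome 11, 99041244 to 99054392, plus strand), fell 1.72-fold. It had 185, 186, 193 and 191 CPM in knockdown replicates 1 to 4, against 324, 326.5, 328 and 323 CPM in scrambled replicates 1 to 4. All 4 knockdown libraries lay below all 4 scrambled libraries, and scrambled replicate 2 lay between the other scrambled libraries here. The means were 189 ± 3.99 in the knockdown and 325 ± 2.58 CPM in the scrambled cells (SD, n = 4), a log2 fold change of -0.79 (SE 0.0243, 95% interval -0.84 to -0.74, adjusted p = 1.45e-17). It had the smallest adjusted p of the 10 genes and ranked 31 among all tested genes. The Igfbp3 to Igfbp4 ratio of CPM was 1.02 to 1.12 in the knockdown and 0.274 to 0.334 in the scrambled libraries, a description with no test.

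The other binding proteins were absent or near the floor. Igfbp5, a matrix-bound carrier (ENSMUSG00000026185, chromosome 1, 72857932 to 72874884), had 0, 2, 1 and 5 counts in the knockdown and 5, 2, 4 and 6 counts in scrambled replicates 1 to 4. These 25 counts failed the filter on low counts, and with no filter the adjusted p was 0.319. Igfbp2 (chromosome 1, 72824503 to 72852474) and Igfbp6 (chromosome 15, 102144362 to 102149511), which prefers IGF2, had 0 counts in all 8 libraries, which allows up to 0.157 CPM in the shallowest. Igfbp1, the neighbour of Igfbp3 and no member of the set, was also at 0. Every one of the 7 tested genes had at least 710 counts in each library, so none passed the filter through 1 group alone.

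The windows around the start sites of the 3 binding proteins that changed are printed because these genes gave the largest differences of the set. RefSeq (GRCm38.p6) held windows for all of the 10 genes but Insr, and each runs from 250 bases before to 50 bases after the start, on the transcript strand. Capitals mark the TATA box letters TATAAA or the GC box letters GGGCGG, on either strand.
Igfbp3 promoter, chr11:7213874-7214173, minus strand: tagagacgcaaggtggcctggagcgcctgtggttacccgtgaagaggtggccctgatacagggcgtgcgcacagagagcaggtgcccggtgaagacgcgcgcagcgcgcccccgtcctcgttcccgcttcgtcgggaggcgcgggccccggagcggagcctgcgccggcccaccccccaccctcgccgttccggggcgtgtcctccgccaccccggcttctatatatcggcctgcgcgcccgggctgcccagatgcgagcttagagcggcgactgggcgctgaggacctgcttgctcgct
Igfbp7 promoter, chr5:77407996-77408295, minus strand: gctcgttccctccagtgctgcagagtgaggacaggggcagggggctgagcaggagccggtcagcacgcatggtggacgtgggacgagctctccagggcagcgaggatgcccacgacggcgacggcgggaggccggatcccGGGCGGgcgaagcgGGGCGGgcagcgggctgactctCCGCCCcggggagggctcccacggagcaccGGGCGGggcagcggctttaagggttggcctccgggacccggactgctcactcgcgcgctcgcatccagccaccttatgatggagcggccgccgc
Igfbp4 promoter, chr11:99040994-99041293, plus strand: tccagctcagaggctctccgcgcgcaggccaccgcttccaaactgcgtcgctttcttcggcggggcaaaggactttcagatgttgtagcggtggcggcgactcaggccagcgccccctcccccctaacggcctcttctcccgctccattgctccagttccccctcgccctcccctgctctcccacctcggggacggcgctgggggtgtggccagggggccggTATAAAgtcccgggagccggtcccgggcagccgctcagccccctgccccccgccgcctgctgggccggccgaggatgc
TATAAA was found in the Igfbp4 window, 28 bases before the start, and in neither of the others, while 13.6% of 32841 mouse promoter windows hold it. Only these exact letters were searched. The Igfbp3 window holds the similar run tatatat, so a lack of TATAAA there does not show that it has no TATA-like element. The Igfbp7 window held the GC box letters 4 times and the other windows of the trio did not hold them, against 35.7% of all windows. The letters CACGTG (7.15% of windows) and CCAAT (37.4%) were found in none of the 3. All were rich in CpG, with 37 in Igfbp3, 33 in Igfbp7 and 27 in Igfbp4, where the median window has 7. Among the binding proteins at or near 0 counts, the Igfbp6 window had 8 CpG, the Igfbp5 window 10, and the 2 windows of Igfbp2 18 and 14. These are descriptions of the reference, and they do not show which factor bound.

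The sum of the expressed binding proteins and the share of each in it both differed between the groups. Levels of different genes were compared per kilobase of exon (CPM per kb), because long transcripts collect more reads. On that scale Igfbp7 was the most abundant of the 10 genes in both groups, with 192 ± 3.47 in the knockdown and 116 ± 2.25 CPM per kb in the scrambled cells (SD, n = 4). Igfbp3 was second in the knockdown (64.3 ± 1.65 CPM per kb), where Igfbp4 came next (42.8 ± 0.903). In the scrambled cells Igfbp4 was second (73.7 ± 0.584 CPM per kb) and Igfbp3 came next (32.8 ± 2.84). The libraries of these 3 genes did not overlap within either group, so the order of Igfbp3 and Igfbp4 was reversed between the groups. The summed IGFBP level reached 299 ± 2.13 in the knockdown, against 222 ± 3.75 CPM per kb in the scrambled cells, 1.34 times as high, and on the CPM scale without length it was 622 ± 2.09 against 568 ± 9.57 CPM. Igfbp4 made up 14.3% ± 0.286 of the sum in the knockdown and 33.2% ± 0.546 in the scrambled cells, Igfbp3 21.5% ± 0.703 against 14.7% ± 1.12, and Igfbp7 64.1% ± 0.713 against 52.1% ± 0.790. Igfbp7 had the largest rise per kb, while the rise of Igfbp3 and the fall of Igfbp4 were of like size. The sum is one of RNA, counts the weak IGF binder Igfbp7 in full, and does not measure IGF binding. These sums carry no test, since the genes were chosen with their results known.

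**Figure D2:**
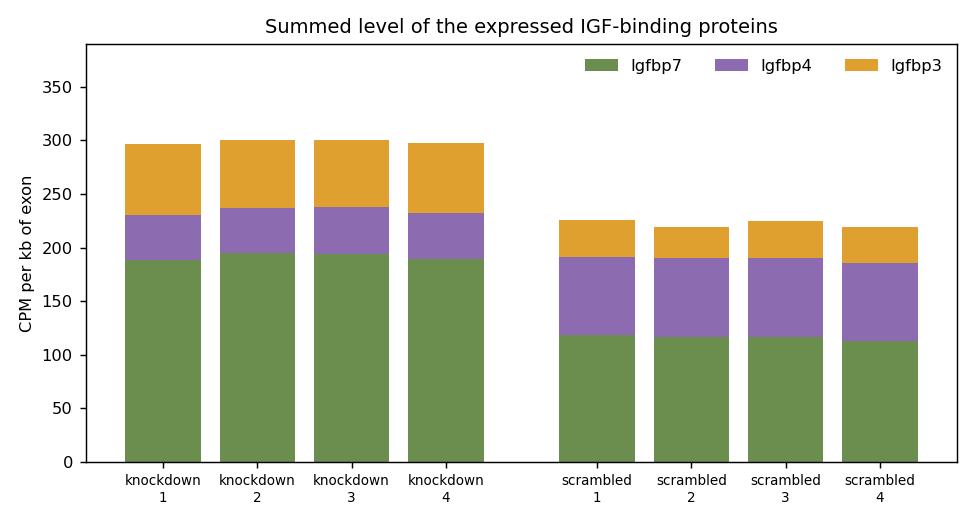
Stacked level of Igfbp7, Igfbp4 and Igfbp3 in each library, in CPM per kb of exon, for knockdown and scrambled replicates 1 to 4. The bars reach 296 to 301 in the knockdown and 219 to 226 in the scrambled libraries, and the Igfbp4 segment is the smallest in the knockdown but the second largest in the scrambled bars.

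Igf1r, the signalling receptor (ENSMUSG00000005533, chromosome 7, 67952827 to 68233668, plus strand), was 1.09-fold higher. It had 148, 148, 147 and 145 CPM in knockdown replicates 1 to 4, against 135, 121, 140.5 and 144 CPM in scrambled replicates 1 to 4. The groups missed each other narrowly, and the knockdown libraries were the tighter ones. The means were 147 ± 1.16 in the knockdown and 135 ± 10.3 CPM in the scrambled cells (SD, n = 4), a log2 fold change of 0.12 (SE 0.0388, 95% interval 0.04 to 0.20, adjusted p = 0.0130). Without scrambled replicate 2 the scrambled mean was 139.8 ± 4.61 CPM and the log2 fold change 0.07 (adjusted p = 0.0275), so that library moves the change by more than 1.5 times.

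Igf2r, the clearance receptor (ENSMUSG00000023830, chromosome 17, 12682406 to 12769664, minus strand), was 1.22-fold higher. Its levels were 56.9, 52.3, 55.05 and 55.7 CPM in knockdown replicates 1 to 4, against 49.3, 35.8, 48.4 and 47.2 CPM in scrambled replicates 1 to 4. The lowest knockdown library exceeded the highest scrambled one, and scrambled replicate 2 was 26.0% below the mean of the other scrambled libraries. The means were 54.98 ± 1.98 in the knockdown and 45.2 ± 6.34 CPM in the scrambled cells (SD, n = 4), with a log2 fold change of 0.28 (SE 0.0667, 95% interval 0.14 to 0.42, adjusted p = 0.00139). Without scrambled replicate 2 the scrambled mean was 48.3 ± 1.07 CPM, and the change was 0.19 (adjusted p = 2.14e-04). The antisense transcript Airn overlaps the gene but shares no exon bases with it in the annotation, and it stood at 0.853 ± 0.151 in the knockdown and 1.18 ± 0.146 CPM in the scrambled cells (adjusted p = 0.109).

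Insr, the insulin receptor and the 1 gene of the set with an 8mer match to the miR-27 seed (ENSMUSG00000005534, chromosome 8, 3122061 to 3279617, minus strand), was not called. It had 56.3, 60.6, 59.9 and 58.0 CPM in knockdown replicates 1 to 4, against 64.6, 54.95, 63.3 and 67.3 CPM in scrambled replicates 1 to 4. The groups overlapped only through scrambled replicate 2, which was below all 4 knockdown libraries. The means were 58.7 ± 1.96 in the knockdown and 62.6 ± 5.34 CPM in the scrambled cells (SD, n = 4), a log2 fold change of -0.09 (SE 0.0494, 95% interval -0.20 to 0.01, adjusted p = 0.127). Without scrambled replicate 2 the scrambled mean was 65.1 ± 2.05 CPM, and the change of -0.15 was called (adjusted p = 0.00148). The Igf1r to Insr ratio per length was 2.15, 2.00, 2.01 and 2.05 in knockdown replicates 1 to 4, and 1.71, 1.80, 1.82 and 1.75 in scrambled replicates 1 to 4. Every knockdown ratio was above every scrambled ratio, including that of scrambled replicate 2.

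Irs1, the docking protein (ENSMUSG00000055980, chromosome 1, 82233101 to 82291416, minus strand), was 1.08-fold higher, at the edge of the threshold. It had 51.2, 51.4, 53.9 and 49.4 CPM in knockdown replicates 1 to 4, against 48.2, 43.5, 49.4 and 48.5 CPM in scrambled replicates 1 to 4. Knockdown replicate 4 and scrambled replicate 3 overlapped, and scrambled replicate 2 was again the lowest. The means were 51.5 ± 1.85 in the knockdown and 47.4 ± 2.68 CPM in the scrambled cells (SD, n = 4), with a log2 fold change of 0.12 (SE 0.0456, 95% interval 0.02 to 0.21, adjusted p = 0.0387). The call was lost without scrambled replicate 2 (log2 fold change 0.08, adjusted p = 0.126), without knockdown replicate 1, 2 or 3 (adjusted p = 0.0658, 0.0697 and 0.131) and with DESeq2 (adjusted p = 0.0692). The gene shares 2822 exon bases with Gm9747 on the opposite strand, and as the strand setting of the counting is not given in the sources used here, reads of the pair cannot be told apart.

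**Figure D3:**
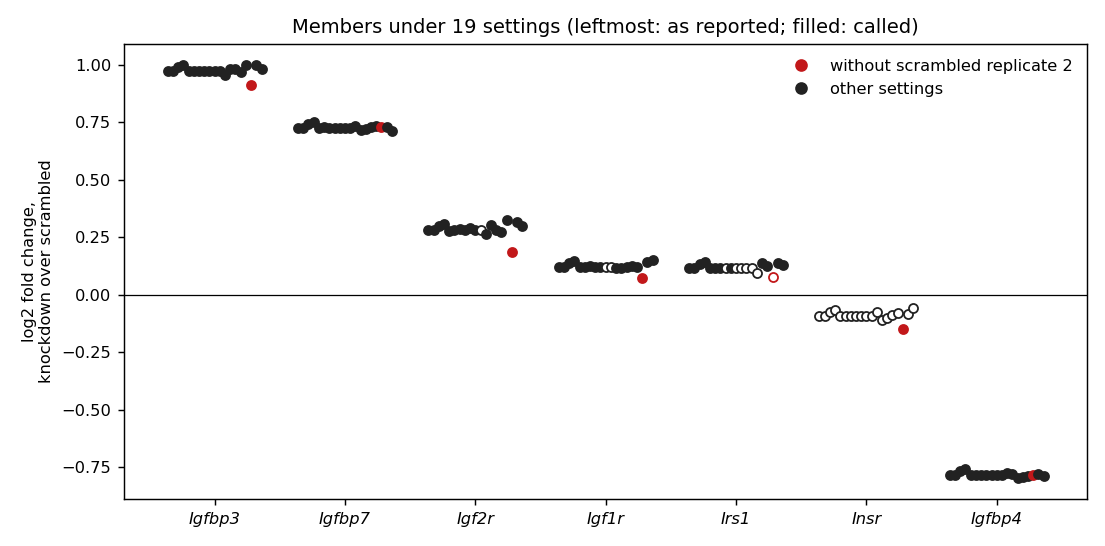
Log2 fold change (knockdown over scrambled) of each tested gene under 19 settings, the reported one leftmost, with filled points for called and open points for uncalled values. Igfbp3, Igfbp7 and Igfbp4 are filled throughout, whereas Irs1 loses its call in several settings and Insr gains one without scrambled replicate 2 (red).

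Igf1r was the most abundant receptor per length in both groups. In the knockdown, Igf1r had 8.75 ± 0.0689 CPM per kb, above Igf2r (5.91 ± 0.212), Irs1 (5.63 ± 0.202) and Insr (4.27 ± 0.143). Igf2r and Irs1 overlapped there, and Insr was below both. In the scrambled cells Igf1r had 8.04 ± 0.612 CPM per kb, followed by Irs1 (5.18 ± 0.293), Igf2r (4.85 ± 0.681) and Insr (4.55 ± 0.389), whose libraries overlapped each other. The Igf2r to Igf1r ratio per length reached 0.675 ± 0.0261 in the knockdown, against 0.602 ± 0.0529 in the scrambled cells, with overlapping libraries. The order below Igf1r rests on the length used. With the longest transcript in place of all exons, Insr had 6.27 ± 0.210 in the knockdown and 6.69 ± 0.571 CPM per kb in the scrambled cells, at or above Igf2r (6.19 ± 0.223 and 5.08 ± 0.714) and Irs1, which has the same length by both.

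Whole chromosomes shift slightly in this comparison, so each gene was set beside the median of its chromosome and of the 5 nearest tested genes on each side. Igfbp3 and Igfbp4 both lie on chromosome 11, whose 969 tested genes had a median log2 fold change of -0.06. The 10 neighbours of Igfbp3 had a median of -0.08 and ran from -0.50 to 0.19, and those of Igfbp4 had a median of 0.01 and ran from -0.47 to 0.67. Top2a and Tns4, on either side of Igfbp4, stood at -0.03 and 0.01 (adjusted p = 0.237 and 0.684). The chromosome 5 median was 0.14, and the neighbours of Igfbp7 had a median of 0.09 with 6 called higher and none lower, the highest being Adgrl3 at 0.70. Igfbp7 was 0.59 above its chromosome on the log2 scale. Insr lies near the start of chromosome 8, where the median of 647 tested genes was 0.21, and Insr stood at -0.30 relative to it. All its 5 tested neighbours lie to one side, with a median of -0.17 and 3 called lower and 1 higher. Igf1r was 0.18, Igf2r 0.28 and Irs1 0.07 above the medians of chromosomes 7, 17 and 1. For Igf1r and Irs1 the neighbours' medians, 0.12 and 0.11, were close to the genes' own changes, but the neighbours were scattered. They ran from -0.28 to 0.445 around Igf1r (2 of 10 called higher, 1 lower) and from -0.50 to 1.08 around Irs1 (4 of 10 higher, 2 lower). The part of the chromosome shifts in these values was not tested.

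**Figure D4:**
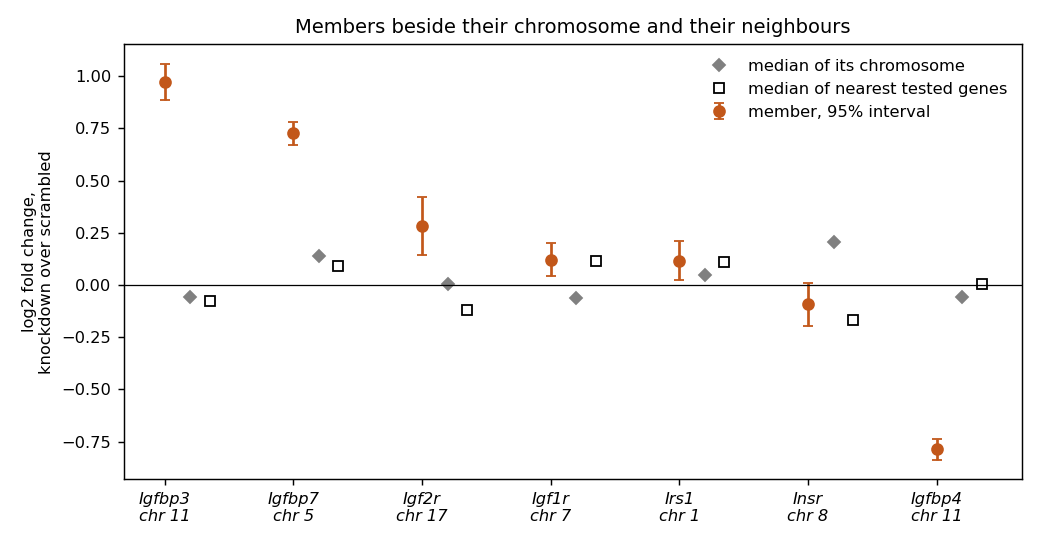
Log2 fold change (knockdown over scrambled) of each tested gene with its 95% interval, beside the median of the tested genes of its chromosome (diamond) and of its nearest tested genes (square). Igfbp3, Igfbp7 and Igfbp4 stand well away from both medians, and Insr lies below the median of chromosome 8.

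The ligands of the axis had few counts or none. Igf1 had 8, 0, 0 and 1 counts in the knockdown and 2, 0, 2 and 1 counts in scrambled replicates 1 to 4, and 8 of its 14 counts came from knockdown replicate 1. Igf2 had 0 counts in the knockdown and 1 count in the scrambled cells, in replicate 2. Its level is uncertain, since Igf2 shares 3596 exon bases on the same strand with the annotated gene Gm49394, and how reads in such overlaps were counted is not given in the sources used here. Ins1 and Ins2 had none, Insrr, the orphan relative of the insulin receptor, had 2, and Igfals, which joins IGFBP3 in blood, had 2. None of the 10 genes in this list of ligands and further binding proteins passed the filter. IGFs or insulin from serum were not measured.

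The proteases that cut IGF-binding proteins, with their inhibitors, moved in both directions. Of 20 genes 13 were tested, and 5 rose, 7 fell and 1 was not called, with a median log2 fold change of -0.09. This is 92.3% called, against 47.9% of all tested genes, which were not matched to the list by level. Adam9 and Ctsd had a mean CPM above 97.9% and 97.5% of tested genes. Like the other lists, this one was chosen with earlier results of these data known, so its share carries no test. Pappa, the pappalysin that cuts IGFBP4, had 1 count in all, and its relative Pappa2 had 0 counts. The metalloprotease Adam12, which can cut IGFBP3 and IGFBP5, rose 2.04-fold (22.8 ± 0.943 in the knockdown against 11.2 ± 0.767 CPM in the scrambled cells, adjusted p = 3.26e-11). Adam9 rose 1.37-fold (602 ± 13.6 against 438 ± 29.7 CPM) and Htra1, a serine protease with an IGFBP-type domain of its own, 1.40-fold (53.1 ± 0.562 against 38.0 ± 2.55 CPM). Mmp14, a membrane collagenase, rose 1.2-fold. Plat, the tissue plasminogen activator, fell 1.27-fold (71.97 ± 2.25 against 91.7 ± 3.80 CPM) and Ctsd, a lysosomal protease, 1.06-fold. The stanniocalcins Stc1 and Stc2, inhibitors of pappalysins that were picked after their values were seen, had log2 fold changes of -0.45 and -0.50 (adjusted p = 8.01e-04 and 7.68e-07).

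Surface and matrix partners of the binding proteins were split as well. Of 15 tested, 7 rose, 3 fell and 5 were not called, with a median of 0.01. Called genes made up 66.7%, against 47.9% of all tested genes (23.8% higher and 24.1% lower). Itgb1, the beta1 integrin that IGFBPs can engage, rose 1.22-fold (841 ± 0.854 against 688 ± 11.6 CPM), Ptprb, a receptor phosphatase, 1.53-fold, the syndecan Sdc1 1.24-fold and fibronectin, Fn1, 1.21-fold. Sdc4, another syndecan, fell 1.35-fold (151 ± 3.97 against 204 ± 5.75 CPM) and Tgfbr1, the type I TGF-beta receptor, 1.32-fold (52.9 ± 1.43 against 69.7 ± 2.46 CPM). Hspa5, the endoplasmic chaperone GRP78, was not called (815 ± 6.94 against 870 ± 88.6 CPM, adjusted p = 0.0790), but was called lower without scrambled replicate 2 (log2 fold change -0.165, adjusted p = 9.6e-12). Tmem219 and Lrp1, both described as IGFBP3 receptors, were not called (adjusted p = 0.574 and 0.335) and were picked after their values were seen, as was Lrp2, the highest point of the list at 1.82 from 119 counts in all.

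Adaptors and regulators of the receptors held 10 rises and 8 falls among 29 tested genes, with a median of 0.02. Their called share was 62.1%, against 47.9% of all tested genes. Gab1, an adaptor that recruits PI3K, rose 2.70-fold (11.3 ± 0.578 against 4.15 ± 0.449 CPM, adjusted p = 7.73e-11), and Socs2, a feedback inhibitor of growth hormone and IGF signalling, 1.79-fold (28.6 ± 1.09 against 16.0 ± 2.01 CPM). Ptprf, a receptor phosphatase that can act on the insulin receptor, rose 1.44-fold (269 ± 4.05 against 187.5 ± 6.53 CPM). Furin, the protease that matures the receptor precursors, rose 1.2-fold and Ptpn11, the phosphatase SHP2, 1.19-fold. Shc2, an adaptor, fell 1.41-fold (19.5 ± 0.767 against 27.6 ± 0.576 CPM). Nedd4, a ubiquitin ligase of the receptors, was the most abundant of the list and rose 1.06-fold, and Gnb2l1, the scaffold RACK1, was not called (1284 ± 15.6 against 1265 ± 10.9 CPM, adjusted p = 0.377). Irs2, the sister of Irs1, was picked after its values were seen and stood at 0.37 on the log2 scale (adjusted p = 2.66e-05).

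Downstream, 36 genes of the PI3K, AKT and mTOR pathway were tested, and 8 rose, 7 fell and 21 were not called. This called share of 41.7% was near the 47.9% of all tested genes. Their median was 0.01, and their median absolute change 0.10, against 0.13 for all tested genes. Sgk1, a kinase related to AKT, fell 1.95-fold (24.5 ± 0.996 against 47.7 ± 2.79 CPM, adjusted p = 9.52e-13) and Rps6kb1, the S6 kinase, 1.13-fold. The PI3K regulatory subunits Pik3r2 and Pik3r3 rose 1.27-fold and 1.92-fold (Pik3r3 from few reads, 5.17 ± 0.665 against 2.70 ± 0.455 CPM), Akt1 rose 1.09-fold (499 ± 2.84 against 459 ± 10.1 CPM) and Rheb, the activator of mTOR, 1.13-fold. Gsk3b, a target of AKT, was not called (149 ± 3.32 against 150.2 ± 5.03 CPM, adjusted p = 0.719).

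Genes that sort mannose-6-phosphate cargo, the other task of Igf2r, had 6 rises and 6 falls among 21 tested and a median of -0.04. Their called share was 57.1%, against 47.9% of all tested genes. Gga2, an adaptor at the Golgi, fell 1.35-fold (53.05 ± 2.196 against 71.3 ± 3.14 CPM), and the sorting nexin Snx2 and the retromer subunit Vps26b fell 1.21-fold and 1.16-fold. Ap1g1, a clathrin adaptor subunit, rose 1.2-fold, Snx6 1.14-fold, Sort1, sortilin, 1.29-fold and the retromer subunit Vps35 1.08-fold. Sort1 stood at 21.99 ± 1.085 CPM in the knockdown and 16.95 ± 2.537 CPM in the scrambled cells. Without scrambled replicate 2 its scrambled mean was 18.17 ± 0.8655 CPM. Snx5 stood at 343 ± 3.78 against 359 ± 13.6 CPM (adjusted p = 0.0447). That call was lost without scrambled replicate 2 or 3 (adjusted p = 0.136 and 0.0724) or any knockdown replicate. It was also lost with upper-quartile scaling, library totals, a stricter filter and DESeq2 (adjusted p = 0.160, 0.233, 0.0501 and 0.0571). Of the RNA-binding proteins that bind Igf2 mRNA, Igf2bp2 fell 1.18-fold (145 ± 2.59 against 171 ± 8.94 CPM) and Igf2bp1 1.10-fold. Igf2bp1 had overlapping libraries and an adjusted p of 0.0469 that was 0.138 without scrambled replicate 2. Its call was lost in further settings, among them DESeq2 (adjusted p = 0.0922) and limma-voom (adjusted p = 0.051). Hmga2, which drives Igf2bp2 in embryos, rose 1.10-fold, and the list of 5 tested genes had a median of -0.03. In it 1 gene rose and 2 fell, a called share of 60.0%, against 47.9% of all tested genes. Among relatives with an IGFBP-type domain, 3 of 11 were tested, and 66.7% of the 3 were called, against 47.9% of all tested genes. Ctgf (CCN2) fell 1.14-fold (255 ± 5.70 against 290 ± 23.2 CPM), Cyr61 (CCN1) rose 1.22-fold with overlapping libraries, and Crim1 stood at 126 ± 2.97 against 126 ± 7.37 CPM. Without scrambled replicate 2 the scrambled mean of Ctgf was 278.4 ± 3.216 CPM, which makes its fall smaller.

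**Figure D5:**
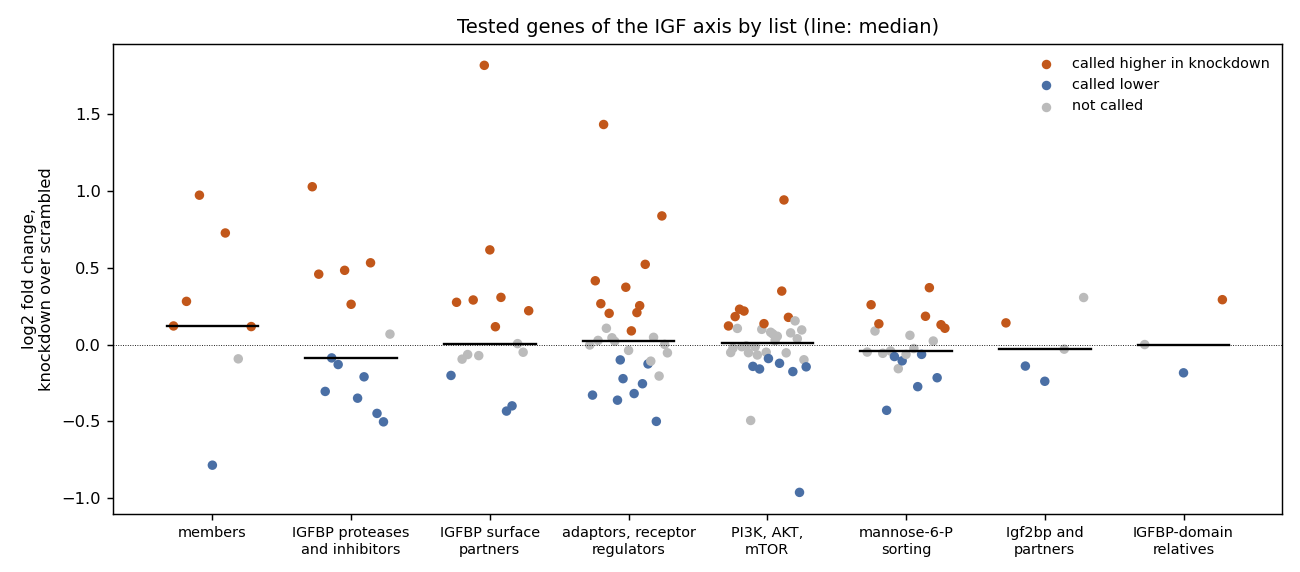
Log2 fold change (knockdown over scrambled) of every tested gene of the set and of each list of the IGF axis, coloured by call, with a line at each list's median. Every list holds called genes in both directions, and the list medians run from -0.09 to 0.12.

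Apart from Igf2, several of the genes named outside the set share exon bases with another annotated gene, and their exact folds are uncertain. Those with the most shared bases are Pik3r3 (1289 bases with Gm49337), Ctsd (808 with Gm49369), Gga2 (720 with Gm44987), Ctgf (665 with Gm15270), Ap1g1 (1435 with Gm17344), Sort1 (338 with Gm12523), Fn1 (292 with Apol7d) and Gab1 (266 with Gm31105). Pappa2 shares 310 bases with 1600012P17Rik. Stc1 (229 bases with Gm41192), Tmem219 (198 with Gm20650), Irs2 (162 with 9530052E02Rik), Furin, Hmga2, Igf2bp1, Pik3r2, Rps6kb1, Shc2, Snx5, Vps35, Crim1 and Gnb2l1 share fewer. Pik3r3, Ctsd and Pappa2 overlap on the same strand, as do Igf2bp1 and Gnb2l1 with small RNA genes. All other overlaps named here are on the opposite strand. Those matter only if the counting ignored strand, and its strand setting is not given. Adam9, Plat, Itgb1, Gab1, Pik3r2, Ap1g1 and Vps35 lie on chromosome 8, where the median log2 fold change was 0.21. Rheb and Ptpn11, with log2 fold changes of 0.177 and 0.253, lie on chromosome 5, where it was 0.137.

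By pattern across the 8 libraries, the genes most like Igfbp7 were Ephx2, Pbxip1 and Mmp15 (Pearson r of log2 CPM 0.9985, 0.997 and 0.9969), and those most like Igfbp4 were Steap1, Sri and Gtpbp10 (r = 0.9996, 0.9993 and 0.9992), all on chromosome 5. Steap1, Sri and Gtpbp10 had log2 fold changes of -2.75, -2.53 and -2.57, far larger falls than the -0.79 of Igfbp4. Igfbp7 and Igfbp4 were used because, among the 10 genes of the set, they had the smallest adjusted p in each direction. Any gene that differs between the 2 groups with little spread has a high r here, and 638 and 706 of 11796 genes had r above 0.95 with Igfbp7 and Igfbp4. On values centred within each group, which hold only the spread between replicates, the nearest were Ppp6r1 (r = 0.991) to Igfbp7 and Rufy3 (r = 0.960) to Igfbp4. These correlations describe 8 libraries that share their preparation, and they carry no test.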

How the data were processed

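Stranded mRNA libraries (8 in all, RIN at least 7) were sequenced as 59-base read pairs, per the labels' protocols. The authors deposited raw read counts per gene symbol. The submitters' processing notes name bcl2fastq 2.20, Bowtie, STAR, DESeq2 1.36.0, R 4.2.1 and mm10 with no roles. Which program counted reads, with what annotation and strand setting, is not given in the sources used here.

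Counts of the whole table were fitted by edgeR 4.0.16 under R 4.3.3 (low counts removed by filterByExpr, minimum 10, total 15; TMM factors of 0.991 to 1.01, quasi-likelihood test on group, adjusted p under 0.05 over 11797 genes). SE is the absolute log2 fold change over the root of F. CPM is TMM-scaled. Positions and lengths are from GENCODE M21 (GRCm38), which matched 23311 symbols as current and 648 as older, with 462 unmatched. Promoters and microRNAs are RefSeq's. Counts were simulated from this comparison for 11730 genes, with 50 changed at each fold of 1.2, 1.5, 2 and 4. Of genes changed 1.2-fold 64% were recovered, and of those changed 1.5-fold 96%. In this single run 7.33% of the genes called were false, more than the threshold of 0.05 allows on average. Far fewer genes were changed than the 5645 called in the real comparison, whose own false share was not measured.

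Members and lists were chosen with earlier results of these data known. Outside the members, the 6 called genes of smallest adjusted p and the 2 of highest CPM per list were named, with 6 ligand-side genes whatever their values. Alternatives were other scalings, filters, thresholds, DESeq2 1.42.0, limma-voom (limma 3.58.1), a replicate block and leaving out each library. Protein sequences were not used here. 1 gene that the naming rule selects and 1 list of cell type markers are not reported here.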

Additional observations from a re-analysis of the deposited data

Results flagged for a closer look

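Of 116 groups of 4 libraries examined, 7 held a library whose gap to its nearest neighbour took an unusually large part of the range, and chance flags about 1 in 20 groups. Of the 7, 4 concern scrambled replicate 2. It had the lowest Igf2r level (35.8 CPM, the others 47.2 to 49.3) and the lowest Igfbp3 share of the summed IGFBP level (13.1%, the others 15.2% to 15.3%), the highest Ctgf level (324.5 CPM, the others 275 to 282) and the highest Shc2 level (28.4 CPM, the others 27.2 to 27.4). The remaining values are small steps in the knockdown libraries. Htra1 stood at 53.9 CPM in knockdown replicate 4 (the others 52.8 to 52.9), Shc2 at 20.7 CPM in knockdown replicate 2 (the others 19.1 to 19.2) and Hmga2 at 629.5 CPM in knockdown replicate 4 (the others 611 to 613.5).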

How the results depend on the processing

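The directions of the log2 fold changes and the calls of Igfbp3 (0.91 to 1.00), Igfbp7 (0.71 to 0.75) and Igfbp4 (-0.80 to -0.76) held under all 18 alternatives. Igf2r ran from 0.19 to 0.33 and lost its call only against a fold of 1.2, Igf1r ran from 0.07 to 0.15 and lost it there and at an adjusted p under 0.01, Irs1 ran from 0.08 to 0.14 and lost it in 7 settings, and Insr ran from -0.15 to -0.06. With an adjusted p under 0.01, 3 members were called higher, and against a fold of 1.2, 2 members were called higher, with 1107 genes called in all (5645 as reported) and 19 of the pathway lists (72 as reported). Leaving out libraries gave 1 or 2 members called lower, with 2 without scrambled replicate 2 (Igfbp4 and Insr). With the replicate number as a block 5533 genes were called, with no member's call changed and Igf2bp1 losing its call (adjusted p = 0.0526). The same-numbered pair correlated best in 1 of 4 cases, and every such correlation lay between -0.035 and 0.02. Scaling by library totals put the summed IGFBP level of the knockdown at 301 CPM per kb and 627 CPM. The longest transcript length gave summed levels of 325.5 in the knockdown and 244 CPM per kb in the scrambled cells, shares of 25.56% and 17.35% for Igfbp3, 15.1% and 34.8% for Igfbp4 and 59.3% and 47.8% for Igfbp7, and an Igf2r to Igf1r ratio of 0.480 and 0.428. Uncalled genes near 0 changed sign: Gsk3b to 0.005 and 0.011 with upper-quartile scaling and library totals, and Crim1 to -0.00019 with no filter and -0.039 to 0.022 over the left-out libraries. Of 43 named genes outside the set, 23 lost their call in the test against a fold of 1.2, which asks for a larger change, and only 2 of them, Snx5 and Igf2bp1, lost it in any other setting. Igfbp2, Igfbp5 and Igfbp6 are limited by depth.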
